A study of Mus musculus with 6 samples.

Results

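Endothelial cells (ECs) pass fatty acids and lipoproteins from the blood to the tissue, and the 10 genes described here encode proteins of that traffic. They are Gpihbp1, Lpl, Lipg and Angptl4 of triglyceride breakdown at the vessel wall, Cd36, Fabp4 and Fabp5 of fatty acid uptake, the lipoprotein receptors Scarb1 and Lrp1, and the nuclear receptor Pparg. They were chosen by name, with earlier results of these data known but by a rule that holds no measured value, from 24421 genes in the count table, and all 10 of them are listed there and in the FPKM table. RNA was sequenced from liver ECs of wild-type C57BL/6J mice, with 3 young samples (10 weeks old) and 3 aged samples (127, 131 and 136 weeks old), with no treatment named. The mice of the study were female, and those with visible tumours or an enlarged liver or spleen had been left out. RNA came from 50000 cells per sample, sorted as CD31+CD45- cells, a gate that takes cells bearing the EC protein CD31 and discards leukocytes by CD45. The study collected 3 independent samples per age, and its text does not say whether a sample holds cells of a single mouse.

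Triglycerides in chylomicrons and very low density lipoproteins are split in the capillary by lipoprotein lipase, the product of Lpl, which is made mostly in fat and muscle cells. GPIHBP1 is the EC protein that carries the enzyme to the luminal surface and holds it there, ANGPTL4 inhibits it, and endothelial lipase (Lipg) acts mainly on the phospholipids of high density lipoprotein. The released fatty acids enter cells with the help of CD36 and are bound inside by the fatty acid binding proteins FABP4 and FABP5. In the liver, much lipoprotein is also taken up through SR-B1 (Scarb1), the receptor for high density lipoprotein, and LRP1, a large receptor for remnant particles that is best known in hepatocytes. PPAR gamma (Pparg) is a fatty acid-sensing transcription factor, and Fabp4, Cd36, Lpl and Angptl4 are textbook targets of it in fat cells and macrophages.

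RefSeq start sites were at hand for 3 of the 10 genes, and the windows of 250 bases before the 3 starts of Pparg are shown because it was the gene whose level differed most clearly with age. The counts are per gene, so they do not tell which start was used. Capitals mark AGGTCA, or its reverse complement TGACCT, the core hexamer bound by PPAR and its partner RXR as well as by other nuclear receptors. The windows are given 5′ to 3′ on the gene's strand, in GRCm38.p6 coordinates, a newer build than the one the reads were mapped to.
Pparg, start 1, chr6:115360894-115361143, plus strand: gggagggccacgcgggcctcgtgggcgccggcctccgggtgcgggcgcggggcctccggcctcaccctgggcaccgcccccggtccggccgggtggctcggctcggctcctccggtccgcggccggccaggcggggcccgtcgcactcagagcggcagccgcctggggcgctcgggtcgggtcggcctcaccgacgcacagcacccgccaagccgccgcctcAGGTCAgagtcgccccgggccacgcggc
Pparg, start 2, chr6:115362099-115362348, plus strand: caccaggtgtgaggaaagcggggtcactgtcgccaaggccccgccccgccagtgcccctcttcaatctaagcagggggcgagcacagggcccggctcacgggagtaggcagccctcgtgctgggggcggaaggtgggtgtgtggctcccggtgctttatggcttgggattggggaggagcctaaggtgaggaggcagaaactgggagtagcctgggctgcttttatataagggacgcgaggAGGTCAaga
Pparg, start 3, chr6:115421816-115422065, plus strand: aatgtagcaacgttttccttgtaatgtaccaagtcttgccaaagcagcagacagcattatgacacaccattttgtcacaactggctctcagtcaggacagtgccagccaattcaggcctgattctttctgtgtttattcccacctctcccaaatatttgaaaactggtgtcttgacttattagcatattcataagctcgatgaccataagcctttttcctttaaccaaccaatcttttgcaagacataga
Cd36, chr5:17835897-17836146, minus strand: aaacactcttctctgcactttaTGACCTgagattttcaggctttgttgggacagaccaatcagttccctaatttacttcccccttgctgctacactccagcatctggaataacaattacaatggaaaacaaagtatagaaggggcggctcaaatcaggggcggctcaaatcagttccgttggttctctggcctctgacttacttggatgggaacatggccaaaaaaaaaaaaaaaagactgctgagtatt
The Cd36 window is added as that of a textbook PPAR gamma target. The hexamer begins 28 bases before start 1 of Pparg, 9 before start 2 and 228 before the Cd36 start, and it is not in the window of start 3 or in that of Lrp1, which is not shown. It occurs on either strand in 14.0% of all 32851 RefSeq windows of this length. Its direct repeat with 1 base of any kind between the copies, the classical PPAR and RXR element, occurs in 0.0335% of the windows and in none of these 5. Pparg starts 1 and 3 also differ in base composition, with 82.4% and 40.8% G and C.

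The places of the genes in mm9, the build used for mapping, were read from GENCODE. Gpihbp1 lies on chromosome 15 (75427088 to 75428642), Lpl on chromosome 8 (71404390 to 71431347), Lipg on chromosome 18 (75098976 to 75120917) and Angptl4 on chromosome 17 (33910695 to 33918520). Cd36 lies on chromosome 5 (17287508 to 17394777), as does Scarb1 (125757457 to 125821464), Lrp1 on chromosome 10 (126975217 to 127058204) and Pparg on chromosome 6 (115311239 to 115440419). Fabp5 (10012548 to 10016607) and Fabp4 (10204347 to 10208576) are neighbours on chromosome 3, with 187739 bases between them. Of the 75-base stretches of Fabp5 transcripts, as long as a read, 27.5% also occur exactly at 4 other places in the genome, so its count may hold reads of such copies or lack reads shared with them. For Lpl 3.41% of stretches recur elsewhere, and for the other 8 genes 0%. Lrp1 overlaps a gene on the other strand, Gm16217, whose reads cannot be told apart from its own where counting ignored the strand.

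The libraries held 23001556 to 31651817 counts, and values below are CPM, counts relative to the library total after scaling by edgeR's TMM factors. Lars2 and Rn45s, which collect ribosomal RNA reads, split the libraries in 2 clusters: they took few counts from young replicate 3 (1.29%) and the 127-week sample (0.960%) and many, 4.68% to 5.53%, from the remaining 4. Age differences inside each cluster stand beside the results, and the cluster with few such counts holds 1 sample per age. All 10 pan-endothelial markers (Eng, Kdr, Pecam1, Tek and others) were detected in each sample. Their summed CPM was 15348 to 17036 in young and 11016 to 14300 in aged samples. All 12 hepatocyte and all 12 stellate and mural markers were also detected in each sample, so detection alone does not tell cell types apart. Hepatocyte sums were 269 to 356 CPM in young and 205 to 331 in aged samples, and stellate and mural sums 154 to 485 and 261 to 754. The sum of 12 sinusoidal EC markers, led by Clec4g, Stab1, Stab2 and Oit3, was 18701 to 20600 CPM in young and 8057 to 13098 in aged samples. In such bulk RNA fewer cells of a type and less RNA per cell cannot be told apart. Of 12 macrophage markers, 10 were higher by fold change, 1 without overlap of the ages (Cd14), and their sum was 61.0 to 104 CPM in young samples and 224, 67.1 and 556 in the 127-, 131- and 136-week samples, and CD45 (Ptprc) reached 1.17 to 1.70 CPM in young samples and 7.56, 1.28 and 25.6 in those aged samples. All 11 lymphocyte markers in the table were higher by fold change, with sums of 3.56 to 4.8 CPM in young and 14.7, 3.07 and 59.5 in aged samples. Of 12 large-vessel EC markers 11 were higher by fold change, 5 of them without overlap of the ages (Hey1, Bmx, Clu, Sox17 and Cd34, named after their values were seen) and 4 with an unadjusted p below 0.05. Their sums, led by Vwf and Ltbp4, overlapped with 5793 to 8118 CPM in young and 7314 to 8072 in aged samples. Of 12 stellate and mural cell markers 6 were higher and 6 lower. Over all genes tested, 51.1% were higher by fold change, 9.62% higher without overlap and 8.32% higher with an unadjusted p below 0.05 (edgeR).

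With age, 0 of the 10 genes passed an adjusted p of 0.05 and a log2 fold change beyond 1 in edgeR's quasi-likelihood test, and 0 of all 14612 genes tested did (0%), although 1847 had an unadjusted p below 0.05. The same threshold was passed by 472 genes with DESeq2 and by 13 higher and 2 lower genes with limma-voom. The clearest differences were in Pparg, which was higher in aged ECs, and in Fabp5, which was lower. All 10 genes were kept by the filter on low counts (0.5 CPM in any sample), Lipg only through 2 aged samples, so its sign is no independent part of the counts and the median below. An unadjusted p below 0.05 was found for 4 of the 10 genes, Pparg and Angptl4 on the higher side and Fabp5 and Gpihbp1 on the lower side, against 12.6% of all genes (8.32% higher and 4.32% lower). The values of the ages did not overlap for 5 of the 10, these 4 and Scarb1, against 17.9% of all genes, with 2 of the 10 higher (9.62% of all genes) and 3 lower (8.33%). By sign alone 5 of the 10 had a positive log2 fold change, as 51.1% of all genes did. With DESeq2's Wald test Pparg alone of the 10 passed the adjusted threshold, which 3.23% of the 14612 genes did. The median log2 fold change of the 10 genes was 0.079. Permuting 3 against 3 samples exactly allows a smallest p of 0.1 for any gene, and Pparg, Fabp5, Gpihbp1, Angptl4 and Scarb1 were at that value (two-sided exact permutation test on log2(CPM + 1), p = 0.1).

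**Figure D1:**
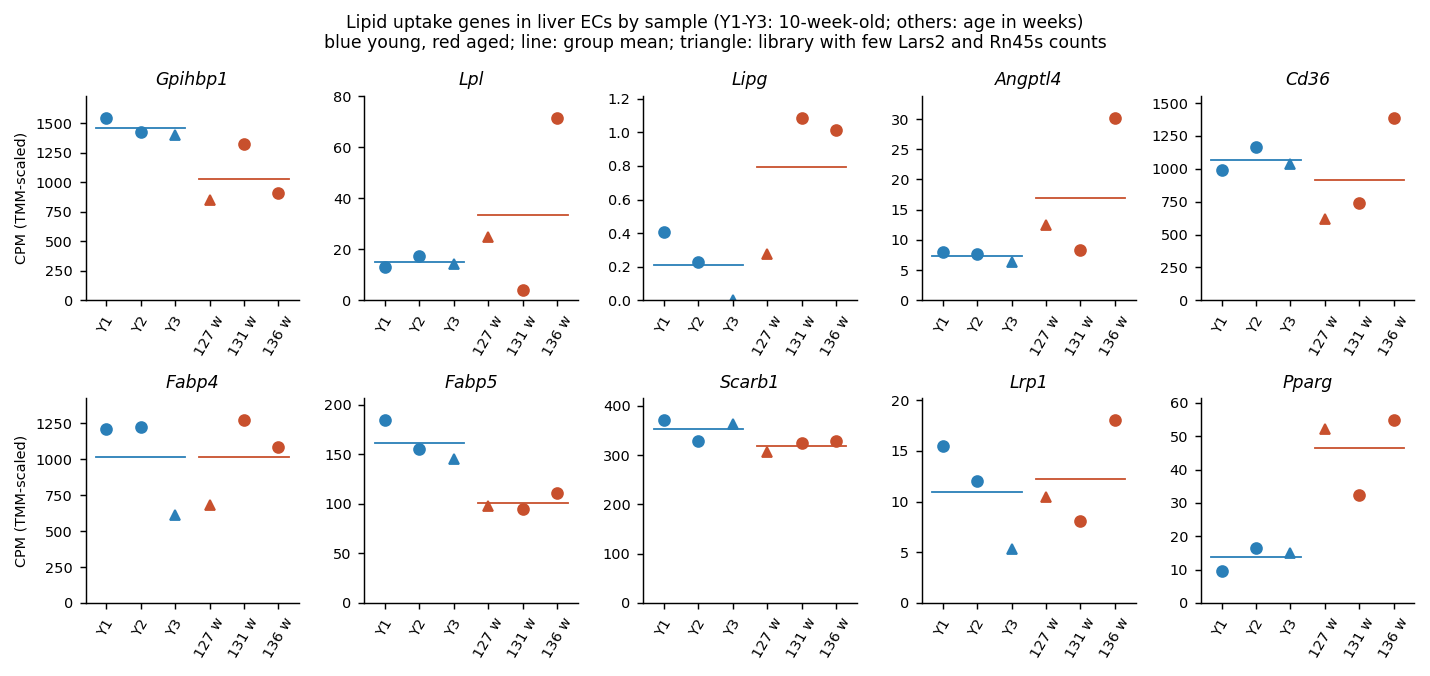
CPM of the 10 genes in each of the 6 samples, with blue for young replicates 1 to 3 (Y1 to Y3), red for the 127-, 131- and 136-week samples, a line for each group mean and triangles for the libraries with few Lars2 and Rn45s counts. All aged points lie above the young ones for Pparg and below them for Fabp5, while the Fabp4 points part by library and not by age.

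The plot of CPM by sample shows these groups of genes, and levels between genes are compared per length, in the deposited FPKM. In young ECs, Gpihbp1 (2336 ± 116 FPKM, SD, n = 3) and Fabp4 (2261 ± 751) came first, at places 19 and 20 among 24346 listed genes, and their sample ranges overlapped. Cd36 (312 ± 25.1 FPKM), Fabp5 (210.4 ± 24.4) and Scarb1 (149 ± 10.2) followed, each with a sample range apart from its neighbours, and were higher than 97.4% or more of the listed genes. Far lower stood Pparg (7.84 ± 2.11 FPKM), Angptl4 (4.16 ± 0.467) and Lpl (3.74 ± 0.533), of which the last 2 overlapped. Lrp1 (0.720 ± 0.334 FPKM) was near the middle of all listed genes. Lipg was close to the limit of detection, at 0.110 and 0.0486 FPKM in young replicates 1 and 2 and listed at 0 in young replicate 3. The order in aged ECs differed in 2 places. Fabp4 (2249 ± 646 FPKM) stood before Gpihbp1 (1637 ± 402), with overlapping ranges, and Scarb1 (134 ± 4.18) beside Fabp5 (131 ± 10.9), also with overlapping ranges.

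**Figure D2:**
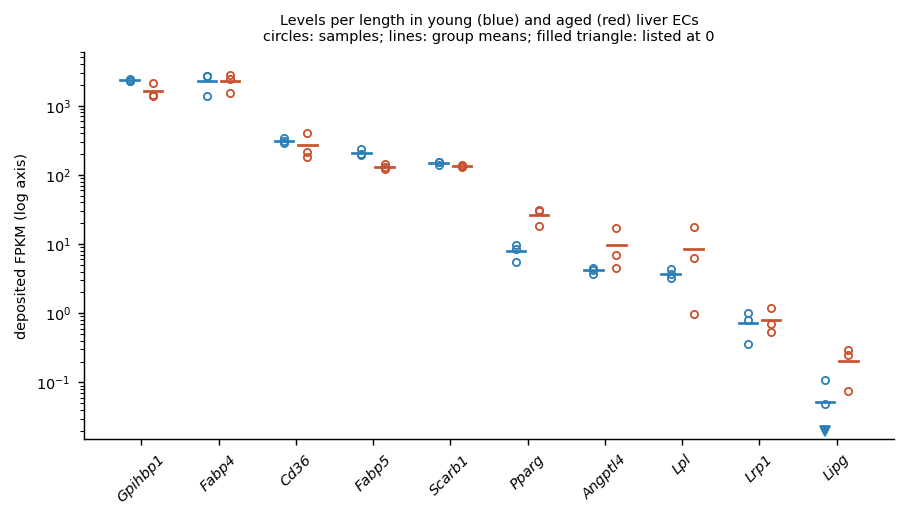
Deposited FPKM of the 10 genes on a log axis, ordered by the young mean, with circles for the 3 young (blue) and 3 aged (red) samples, lines for group means and a filled triangle for a value listed at 0. Gpihbp1 and Fabp4 stand at 1365 FPKM or more in all samples, and Pparg moves from 5.49 to 9.58 FPKM in young to 18.0 to 30.8 in aged samples.

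Among the genes of lipolysis, Gpihbp1, the anchor of lipoprotein lipase on ECs, had 1549.8, 1428 and 1399 CPM in the young samples and 847, 1323 and 910.45 in the 127-, 131- and 136-week samples. The aged values all lay below the young ones, the 131-week sample by the least. The mean was 29.6% lower in aged ECs, and the log2 fold change was -0.51 (standard error 0.22, adjusted p = 0.393, edgeR). The difference on log2(CPM + 1) was -0.44 within the libraries with many Lars2 and Rn45s counts and -0.72 within the others. Its unadjusted p was below 0.05 in 8 of 17 alternative analyses. The sum of the sinusoidal markers was likewise below all young samples in every aged one, and among the aged samples highest at 131 weeks. The pan-endothelial sum had both traits too, with 12642, 14300 and 11016 CPM in the 127-, 131- and 136-week samples. The large-vessel sum, which overlapped between the ages, was also highest at 131 weeks among the aged samples. The part of these markers in the Gpihbp1 difference was not tested. Lmf1, a chaperone needed to fold the lipase, had 40.3, 41.6 and 52.6 CPM in young and 29.0, 37.8 and 24.6 in aged samples, with a log2 fold change of -0.56 (adjusted p = 0.345, edgeR).

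Lpl, the lipase itself, had 13.1, 17.2 and 14.3 CPM in young and 24.7, 3.93 and 71.6 CPM in the 127-, 131- and 136-week samples. The young samples lay close together, within 1.31-fold, while the aged samples spanned 18.2-fold and lay on both sides of them. The log2 fold change was 1.17 (standard error 0.82, adjusted p = 0.617, edgeR). It rested on the 136-week sample, without which it was -0.050, and was 1.70 without the 131-week sample. The difference on log2(CPM + 1) was 0.24 and 0.75 within the clusters with many and few Lars2 and Rn45s counts. The tested gene outside the list whose pattern over the 6 samples came closest to that of Lpl was Csf1r, the macrophage growth factor receptor, with 8.63, 7.54 and 11.5 CPM in young and 21.2, 3.38 and 54.0 in aged samples. The sum of the macrophage markers, of which Csf1r is one, had the same order as Lpl in the aged samples. So did the sums of lymphocyte (14.7, 3.07 and 59.5 CPM), hepatocyte (295, 205 and 331) and stellate and mural markers (472, 261 and 754). Of the 12 macrophage markers 0 were at 0 counts in any young sample or at 136 weeks, 1 at 127 weeks (Marco) and 1 at 131 weeks (Timd4). The part of any of these markers in the Lpl values was not tested.

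**Figure D3:**
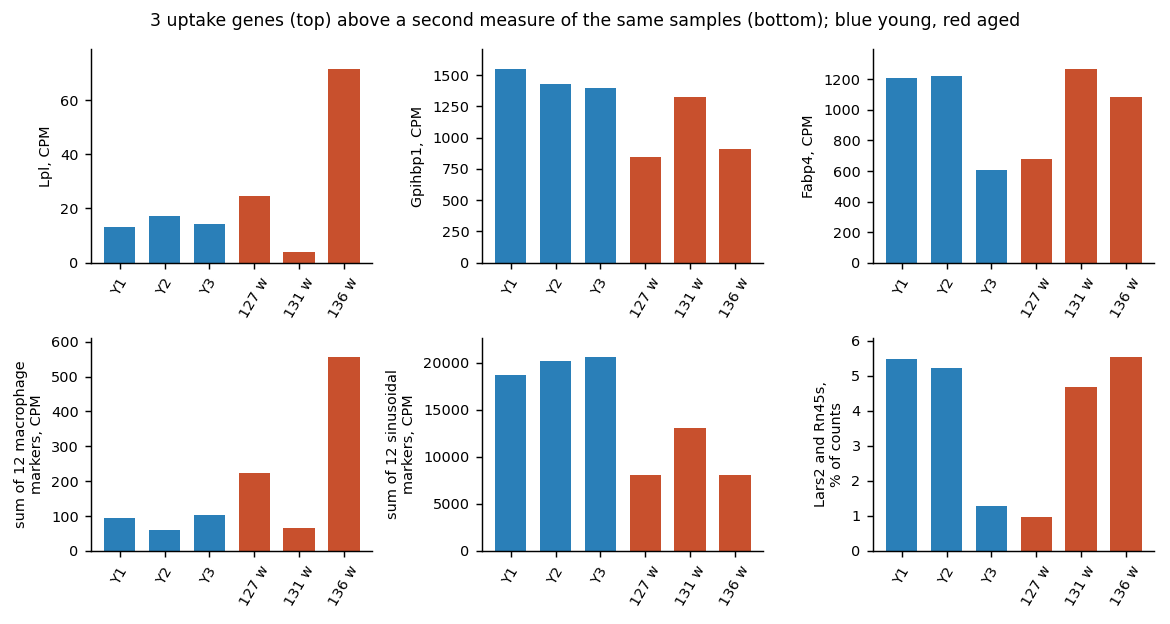
Bars of CPM for Lpl, Gpihbp1 and Fabp4 in each sample (top) above the summed CPM of 12 macrophage markers, the summed CPM of 12 sinusoidal EC markers and the percent of counts on Lars2 and Rn45s in the same samples (bottom), blue for young and red for aged. In the Lpl column the aged bars of both panels are lowest at 131 and highest at 136 weeks, in the Gpihbp1 column they are highest at 131 weeks, and in the Fabp4 column young replicate 3 and the 127-week sample are the lowest bars of both panels. Lymphocyte, hepatocyte and stellate and mural sums, not drawn, were also lowest at 131 and highest at 136 weeks. Pan-endothelial and large-vessel sums, not drawn, were also highest at 131 weeks among the aged samples.

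Angptl4, the lipase inhibitor that is also induced by fasting and low oxygen, had 8.0, 7.58 and 6.34 CPM in young and 12.4, 8.32 and 30.2 CPM in the 127-, 131- and 136-week samples. The ages did not overlap, but the 131-week sample exceeded the highest young sample by little. The log2 fold change was 1.22 (standard error 0.46, adjusted p = 0.358, edgeR), and 0.50 without the 136-week sample. Within the library clusters the difference on log2(CPM + 1) was 0.96 and 0.87, and in 9 of 17 alternatives the unadjusted p was below 0.05. Among the aged samples Angptl4 and the macrophage marker sum had the same order, lowest at 131 and highest at 136 weeks. The lymphocyte, hepatocyte and stellate and mural sums had that order too, while the EC marker sums were highest at 131 weeks. The part of any of these markers in the Angptl4 values was not tested. Lipg, the endothelial lipase, had 11, 5 and 0 counts in young and 8, 28 and 25 counts in the aged samples. A count of 0 in young replicate 3 allows up to 0.0946 CPM, and the ages overlapped. The log2 fold change was 1.90 (standard error 1.17, adjusted p = 0.562, edgeR) and ran from 1.30 without young replicate 3 to 2.86 without young replicate 1. Since Lipg was kept only because the 131- and 136-week samples lay above 0.5 CPM, and all 3 young samples lay below it, its direction is given as a description.

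Of the fatty acid uptake genes, Fabp5 was lower in all 3 aged samples. It had 185, 156 and 145 CPM in young and 97.5, 94.7 and 111 CPM in the 127-, 131- and 136-week samples. The aged mean was 37.5% lower, with little spread inside either age (coefficients of variation of 12.6% and 8.69%). The log2 fold change was -0.68 (standard error 0.15, adjusted p = 0.232, edgeR), it stayed between -0.75 and -0.57 with each sample left out, and it was -0.72 and -0.57 within the library clusters on log2(CPM + 1). In 17 of 17 alternative analyses its unadjusted p was below 0.05, and its adjusted p was lowest with DESeq2's Wald test (0.00712) and reached 0.625. These values hold for the count as deposited, with the copies elsewhere in the genome described above.

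Fabp4, the related binding protein known from fat cells and capillary endothelium, had 1208, 1223 and 609 CPM in young and 682, 1269.5 and 1086 CPM in the aged samples. Young and aged means were alike at 1013 ± 350 and 1013 ± 301 CPM (SD, n = 3 for both), and the log2 fold change was -0.0012 (standard error 0.34, adjusted p = 0.9996, edgeR). Its low samples were young replicate 3 and the 127-week sample, the libraries with few Lars2 and Rn45s counts. Of the 10 genes it was the one whose library clusters did not overlap, which 30.7% of all genes tested did not either. With a term for the cluster the standard error was 0.13 and the log2 fold change 0.024 (adjusted p = 0.941, edgeR).

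Cd36, the fatty acid receptor and scavenger receptor, had 994, 1165 and 1039 CPM in young and 620.4, 741 and 1390.5 CPM in the 127-, 131- and 136-week samples. The young samples were close together, and the aged samples lay on both sides of them. The log2 fold change was -0.22 (standard error 0.31, adjusted p = 0.838, edgeR). It moved to -0.65 without the 136-week sample and to 0.0045 without the 127-week sample. Within the library clusters the difference was -0.084 and -0.74 on log2(CPM + 1).

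The lipoprotein receptor Scarb1 was among the steadiest of the 10 genes. It had 371, 328.16 and 363 CPM in young and 306, 325 and 327.87 CPM in the aged samples, so that the ages were apart by less than 1 CPM. Young ECs averaged 354 ± 22.6 CPM and aged ECs 319 ± 11.9 (SD, n = 3 for both), and the log2 fold change was -0.15 (standard error 0.14, adjusted p = 0.724, edgeR). Lrp1, the remnant receptor, had 15.5, 12 and 5.33 CPM in young and 10.5, 8.13 and 18.0 CPM in aged samples. The ranges overlapped, with the highest value in an aged and the lowest in a young sample, and the log2 fold change was 0.16 (standard error 0.45, adjusted p = 0.933, edgeR). Its counts were low, 169 to 444 per library. Inside the clusters, the one with many of those ribosomal counts first, the difference on log2(CPM + 1) was -0.096 and -0.25 for Scarb1 and -0.15 and 0.86 for Lrp1.

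Pparg had 9.71, 16.4 and 14.9 CPM in young and 52.3, 32.3 and 54.8 CPM in the 127-, 131- and 136-week samples. Even the lowest aged sample exceeded the highest young sample, and the 3 aged samples stood at 3.83, 2.36 and 4.01 times the young mean. The counts behind these values were 261, 364 and 471 in young and 1521, 830 and 1349 in aged libraries. The log2 fold change was 1.77 (standard error 0.28, adjusted p = 0.181, edgeR). With each sample left out it stayed between 1.57 and 1.97, and within the library clusters the difference on log2(CPM + 1) was 1.66 and 1.75. In 17 of 17 alternatives the unadjusted p was below 0.05, and the adjusted p ran from 6.70e-06 with DESeq2's Wald test to 0.625. The macrophage marker sum was 224, 67.1 and 556 CPM in these aged samples and 61.0 to 104 in young samples. Of the 12 macrophage markers only Cd14 had ages without overlap, above the young 10.3 to 12.1 CPM in each aged sample. Of the others with the highest CPM, Lyz2 had 103, 19.4 and 327 CPM in the 127-, 131- and 136-week samples (young 15.2 to 31.0). Clec4f had 33.0, 2.18 and 32.8 CPM (young 7.85 to 19.9) and Csf1r 21.2, 3.38 and 54.0 (young 7.54 to 11.5). At 131 weeks Lyz2 thus lay inside the young range and Clec4f and Csf1r below it, and at 127 and 136 weeks all of them lay above it. Of the 12 large-vessel EC markers, 5 had ages without overlap, of which Hey1 and Bmx, picked after their values were seen, are given. Hey1 had 10.6, 14.0 and 14.9 CPM in young and 35.9, 31.9 and 87.9 in aged samples. Bmx had 48.6, 41.0 and 29.3 in young and 69.3, 69.8 and 90.9 in aged samples. The markers with the highest CPM, Vwf, Ltbp4, Ly6a and Rspo3, overlapped between the ages, with log2 fold changes of 0.046, -0.11, 0.25 and 0.017 (edgeR). The part of macrophage and of large-vessel markers in the Pparg values was not tested. Adipoq, the fat cell hormone gene, was at 0 counts in 5 of the 6 libraries, and the 8 adipocyte markers together reached at most 2.17 CPM.

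**Figure D4:**
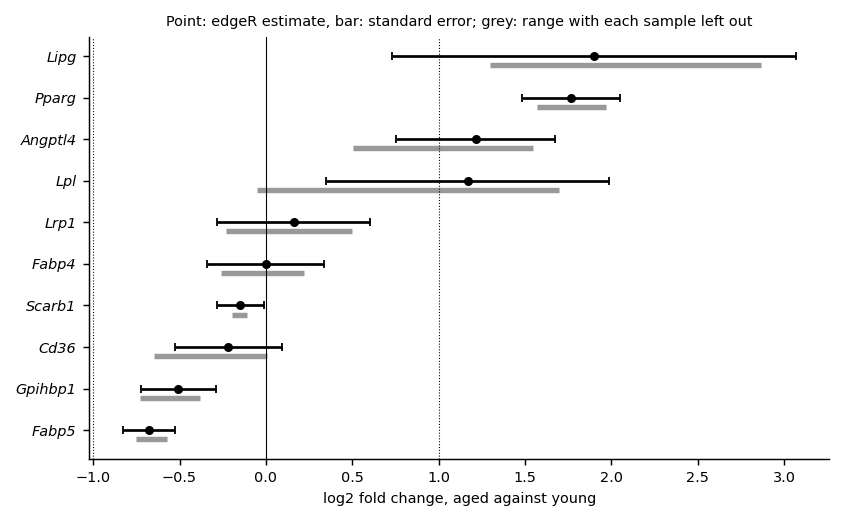
Log2 fold change of aged against young ECs for the 10 genes from edgeR (points, with the standard error as bar) and its range when each sample is left out in turn (grey). Pparg stays above 1.57 and Fabp5 below -0.57, while the ranges of Lpl, Lrp1, Fabp4 and Cd36 reach both sides of 0.

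Genes with the pattern most like Pparg were Icam1, Eps8 and C2, with a root mean square difference of 0.20, 0.22 and 0.28 in centred log2(CPM + 1) over the 6 samples, where Pparg itself varied by 0.90 about its mean. They were sought among 8904 tested genes with a mean of at least 10 CPM, and such likeness over 6 samples is a description. By the same measure the closest gene was Pitpnm1 for Gpihbp1 (0.049), Ostc for Fabp5 (0.13), Rab35 for Fabp4 (0.028), Cda for Cd36 (0.095), Acsl5 for Scarb1 (0.025), Anxa6 for Lrp1 (0.17), Tmem119 for Angptl4 (0.090), Csf1r for Lpl (0.31) and 2310047M10Rik for Lipg (0.089).

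Around the 10 genes, 110 other genes of lipid handling were listed in 7 groups, of which 96 passed the filter and 0 the adjusted threshold. Of the 96, 9 were higher and 13 lower with an unadjusted p below 0.05 (22.9%, against 12.6% of all genes), with a median log2 fold change of -0.012 (all genes tested, 0.0098).

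Of 18 lipoprotein receptors and adaptors tested, 4 were higher and 4 lower by that p. Olr1, a receptor for oxidised low density lipoprotein, had 0.856, 0.993 and 2.14 CPM in young and 5.40, 3.97 and 14.5 in aged samples (log2 fold change 2.57, adjusted p = 0.235, edgeR). Lrp8 (log2 fold change 2.27) and Vldlr (1.68, with overlapping ages), receptors of the low density lipoprotein receptor family, had the next smallest p on the higher side. Lrp8 was low, at 0.189 to 0.744 CPM in young and 1.82 to 2.355 in aged samples. Msr1, a scavenger receptor of macrophages and sinusoidal ECs, had 551, 522 and 428 CPM in young and 226, 253 and 193 in aged samples (log2 fold change -1.16, adjusted p = 0.177, edgeR). Mylip, which marks the low density lipoprotein receptor for degradation, and Lrp5 had log2 fold changes of -0.83 and -0.44. The sinusoidal and the pan-endothelial marker sums given above were lower in these aged samples as well, and their part in the Msr1 values was not tested.

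Of 14 tested genes of fatty acid transport and activation, 1 was higher and 2 lower. Slc27a3, an acyl-CoA synthetase of the fatty acid transport protein family, had 26.3, 22.8 and 21.0 CPM in young and 45.8, 38.3 and 38.7 in aged samples (log2 fold change 0.81, adjusted p = 0.193, edgeR). Fabp1, the liver form of the binding proteins, had 30.0, 18.7 and 6.34 CPM in young and 2.92, 5.44 and 3.94 in aged samples (log2 fold change -2.16, adjusted p = 0.245, edgeR). Fabp1 is abundant in hepatocytes. By fold change 11 of 12 hepatocyte markers were lower in aged ECs, where 51.1% of all genes tested were higher. Their sums were 269 to 356 CPM in young and 205 to 331 in aged samples, and their part in the Fabp1 values was not tested. Slc27a4 had a log2 fold change of -0.47.

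Of 14 PPAR partners and coregulators tested, 1 was higher by that p, Nr1h3, the liver X receptor alpha, with overlapping values of 14.9, 16.1 and 14.2 CPM in young and 38.0, 15.5 and 28.5 in aged samples. Ppara and Ppard, the other PPAR genes, were singled out after their values were seen. They stood at 0.0853 and 0.323 FPKM in young and 0.0355 and 0.271 in aged ECs, so that Pparg had the highest level per length of the 3 in both ages. Of 12 other PPAR target genes tested, 1 was higher and 3 lower. Hilpda, an inhibitor of fat droplet lipolysis, had 24.9, 35.9 and 25.2 CPM in young and 30.4, 49.6 and 121 in aged samples. Ucp2, a mitochondrial carrier, had 248, 294 and 335 CPM in young and 144, 190.4 and 198 in aged samples (log2 fold change -0.72, adjusted p = 0.250, edgeR). Pck1 and the lipid droplet coat gene Plin2 had log2 fold changes of -1.85 and -0.33.

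Of 10 tested lipase partners, 0 were higher and 3 lower, Angptl6 (log2 fold change -2.08), Sel1l (-0.46) and Lmf1. Angptl6 was low, at 4.47, 3.56 and 1.51 CPM in young and 0.653, 0.856 and 0.731 in aged samples. Its mean deposited FPKM differed less, 5.40 in young and 4.01 in aged ECs. Of 17 fatty acid oxidation genes, 1 was higher (Etfa, 0.38) and 1 lower (Acaa2, -0.45), with a median of -0.029. Of 11 genes of lipid storage and efflux, 1 was higher, Dgat2 (1.08, with overlapping ages), and the median was -0.13.

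**Figure D5:**
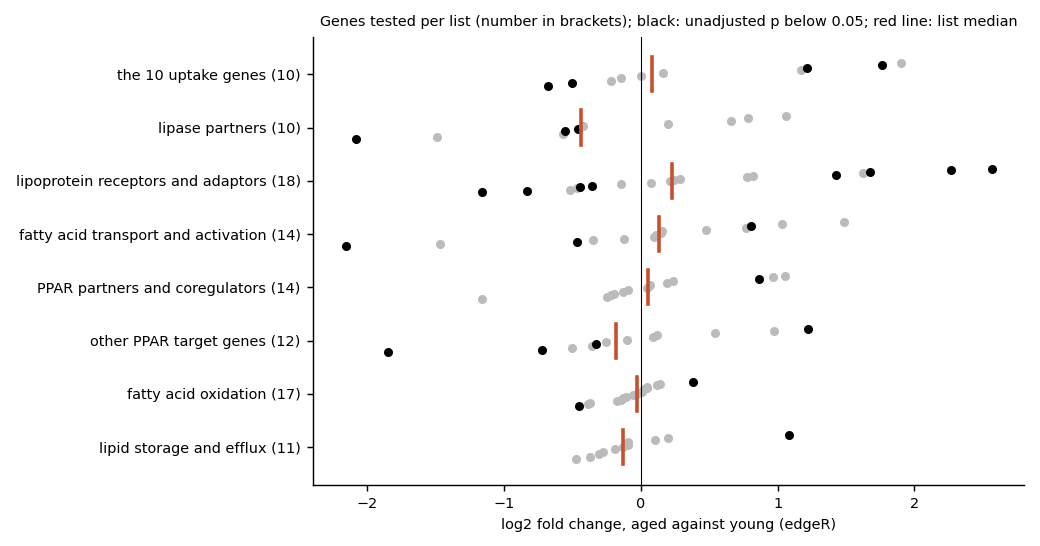
Log2 fold change of aged against young ECs (edgeR) for every tested gene of the 10 uptake genes and of 7 lists of lipid genes, with the number tested in brackets, black points for an unadjusted p below 0.05 and a red line for the list median. The medians lie between -0.44 and 0.23, and the black points fall on both sides of 0 in 5 of the 8 rows.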

How the data were processed

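RNA of sorted liver ECs was made into TruSeq libraries and sequenced to 75 bases from 1 end. Per the labels and the study's methods, the authors called bases with CASAVA 1.8.2 and mapped reads to mm9 with TopHat 2.1.0. The authors deposited raw read counts per gene symbol, with the counting program, annotation and strand setting not given in the sources used here, and FPKM values normalized between samples by Cuffnorm 2.2.1.

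Groups were taken from the sample titles. Genes that reached 0.5 CPM in 1 sample or more (14612 of 24421) were normalized by TMM and compared with the quasi-likelihood test of edgeR 4.0.16 (R 4.3.3), with Benjamini-Hochberg adjustment over all of them. Standard errors were derived from the fold change and the F statistic. The p-values set the difference between the ages against the spread between samples of an age, and whether each sample is a single mouse or a pool is not stated. No replicate pair of an age differed by so little as to be a library given under different names (smallest chi-square per degree of freedom 21.3). DESeq2 1.42.0, limma 3.58.1 on voom and log2 FPKM values, other filters and scalings, and leaving out each sample were alternatives. The test was checked on simulated counts. The 10 genes, though picked by name, the lists and the library clusters were chosen with earlier results of these data known. Named are the 10 genes, up to 3 genes per list and direction by smallest unadjusted p below 0.05, up to 4 markers per list by CPM and Ptprc, and the closest genes by pattern. Outside this rule, Hey1, Bmx, Clu, Sox17, Cd34, Ppara and Ppard were named after their values were seen. As reads carried no molecular identifiers, the floor of 3 counts covers counting error only.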

Additional observations from a re-analysis of the deposited data

How the results depend on the processing

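Each result was recomputed under 17 alternatives. The directions of Pparg, Fabp5, Gpihbp1, Scarb1 and Angptl4 were the same in all 17. DESeq2's Wald test called 395 genes higher and 77 lower, and 1 of the 10 uptake genes, Pparg (log2 fold change 1.76). Voom with quality weights called 13 genes higher and 2 lower, edgeR without a filter 3 and 1, edgeR with the library cluster term 1 and 1, and limma on log2(FPKM + 0.1) 1 and 1, or 1 and 0 with no filter. On log2(FPKM + 0.1) with and without the filter, and on log2(FPKM + 1) with it, 2 of the 10 genes (Pparg and Fabp5) had an unadjusted p below 0.05. With each sample left out, 0 to 1 gene was called higher and 0 lower, 2 to 5 of the 10 genes had an unadjusted p below 0.05 (2 without any 1 of the 3 young samples, 5 without the 131-week sample), and 4 to 6 did not overlap. Scaling by library size alone left 4 of the 10 without overlap.

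Fabp4, close to 0, changed sign to 0.012 on log2 FPKM, 0.049 with library size only, 0.014 with the stricter filter and 0.024 with the cluster term, and ran from -0.26 to 0.22 with samples left out. Lrp1 was -0.18 with voom and -0.23 to 0.50 with samples left out, Cd36 -0.65 to 0.0045 and Lpl -0.050 to 1.70. The cause of these changes was not tested. No paired analysis was possible because the aged samples carry no replicate numbers. Lipg, with 0 to 28 counts, ran from 1.30 to 2.86 with samples left out, was 0.19 on log2(FPKM + 1), had an unadjusted p of 0.042 with the cluster term, and was not kept by the stricter filter.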

Other observations

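Together the 10 genes took 0.360% to 0.435% of scaled counts in the young samples and 0.265%, 0.381% and 0.400% in the 127-, 131- and 136-week samples. Gpihbp1, Fabp4 and Cd36 made up 81.0% to 87.7% of that total in the 6 samples, so it says little of the other 7 genes.

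Ratios within a sample were also formed from FPKM, after the values of the single genes were seen and with no test. The ratio of Fabp4 to Fabp5 was 11.2, 13.5 and 7.26 in young and 12, 23 and 16.8 in the 127-, 131- and 136-week samples. The ratio of Gpihbp1 to Lpl, the anchor to the enzyme, was 758, 528 and 617 in young samples and 218, 2137 and 80.8 in the aged samples, a wider range than in the young. The ratio of Gpihbp1 to the pan-endothelial gene Pecam1 was 5.81, 5.33 and 4.50 in young and 3.17, 4.93 and 2.86 in aged samples, with the 131-week sample inside the young range.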
